A study of Mus musculus with 6 samples.

Results

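Ribosome biogenesis factors are the proteins that transcribe, modify, cleave and fold ribosomal RNA (rRNA) and load ribosomal proteins onto it, mostly in the nucleolus. The 45 factors described here were found by their gene symbols among the 24411 genes of the expression files, and all 45 passed the filter on low counts that left 12953 genes to test. RNA-seq of poly(A)-selected RNA was available for 3 control and 3 Brd9 KO libraries of C57BL/6 mouse bone marrow. Control mice were Brd9fl/fl and carried no Cre, and Brd9 KO mice were Mx1-Cre Brd9fl/fl, in which an interferon-inducible Cre deletes the floxed exons that encode the bromodomain. Both groups received pIpC at 20 mg/kg in 3 doses, and cells were prepared 8 weeks later from femora and tibiae. The sample labels give lineage-negative cells and transplant recipients, whereas the series design gives primary mice treated from 4 weeks after birth and the study describes sorted Lin-c-Kit+ cells, in biological triplicate, from mice aged 4 months. Mx1-Cre is also active outside blood cells, and because Cre was present in Brd9 KO only, its own effect and that of Brd9 loss cannot be told apart.

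Ribosome production starts when RNA polymerase I (Pol I) copies the rRNA genes into a long precursor. Small nucleolar ribonucleoproteins of the box C/D and box H/ACA classes then methylate and pseudouridylate this precursor, the small subunit processome folds and cleaves its first part, and a further set of factors builds the large subunit. Dividing blood progenitors make many ribosomes, and the transcription factor Myc is a well known activator of the genes for these proteins. BRD9 is a bromodomain subunit of the non-canonical BAF chromatin remodeling complex.

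Promoters of these genes can hold an E-box, the site of Myc with its partner Max, or an ETS motif, the site of ETS family factors. RefSeq promoter windows, from 250 bases before to 50 bases after the start, were matched by symbol for 39 of the 45 factors. A gene was counted when any of its windows held the motif. The E-box CACGTG, which reads the same on both strands, was present for 8 of the 39 factors (20.5%). The share was 11.7% of the 9858 genes tested that had a window. The ETS motif CCGGAAGT or its reverse complement ACTTCCGG was present for 9 of 39 (23.1%), against 8.99% of those genes. Counted per window, a different unit, the E-box was in 7.15% and the ETS motif in 3.89% of all 32851 windows. Among the factors, Tsr1 alone had both motifs. The stretches upstream of Utp18, Polr1c and Gar1, all on the minus strand of GRCm38.p6, are shown because these 3 factors fell in Brd9 KO and hold 1 of the motifs (in capitals) close to the start.
Utp18: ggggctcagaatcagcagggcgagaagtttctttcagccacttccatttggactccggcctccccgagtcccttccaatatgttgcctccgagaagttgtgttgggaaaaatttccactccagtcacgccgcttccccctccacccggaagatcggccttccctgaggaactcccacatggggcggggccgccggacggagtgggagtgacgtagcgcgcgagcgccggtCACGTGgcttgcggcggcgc
Polr1c: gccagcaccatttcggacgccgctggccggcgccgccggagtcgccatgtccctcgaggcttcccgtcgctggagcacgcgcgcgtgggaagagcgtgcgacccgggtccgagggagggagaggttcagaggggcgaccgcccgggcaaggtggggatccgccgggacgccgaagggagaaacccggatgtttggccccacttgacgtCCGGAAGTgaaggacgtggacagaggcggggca
Gar1: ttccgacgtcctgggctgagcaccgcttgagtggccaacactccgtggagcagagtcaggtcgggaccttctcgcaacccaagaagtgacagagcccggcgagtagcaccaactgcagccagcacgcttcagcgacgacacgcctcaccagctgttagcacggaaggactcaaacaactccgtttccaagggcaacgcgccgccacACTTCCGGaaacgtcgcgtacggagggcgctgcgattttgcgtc
The Utp18 stretch (chr11:93885767-93886016) holds the E-box, which begins 20 bases from its downstream end. The Polr1c stretch (chr17:46248055-46248295) and the Gar1 stretch (chr3:129831397-129831646) hold the ETS motif, beginning 33 and 44 bases from the downstream end. Neither motif is a measured binding site. Of the 8 factors with an E-box, 2 fell in Brd9 KO and the median log2 fold change was -0.30, beside 13 of 31 and -0.33 for those without it. Of the 9 factors with the ETS motif, 5 fell and the median was -0.40, beside 10 of 30 and -0.32 without it. By the test described below, 6.25% of all genes tested were called lower.

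Expected counts summed to between 21151031 and 28500168 per library. Levels are given in CPM, counts scaled to a common library total with TMM factors, and Brd9 KO was compared with control by the quasi-likelihood test of edgeR, with adjusted p under 0.1 as the threshold for a call. Negative values in parentheses after a gene are its log2 fold change in Brd9 KO over control, with the SE after the ± sign. Brd9 itself had 45.9, 49.1 and 52.1 CPM in the 3 controls against 15.6, 13.5 and 21.0 CPM in the 3 Brd9 KO libraries. The deleted gene kept 34.1% of its control level (log2 fold change -1.56 ± 0.17 SE, edgeR adjusted p = 0.00345; exact two-sided permutation p = 0.1, the smallest that 3 against 3 allows). In Brd9 KO 3, the summed level of 7 neutrophil markers was 7365 CPM, against 1113 and 1275 CPM in the other Brd9 KO libraries and 1590 to 2978 CPM in control. Of other markers, 5 of 7 stromal, 4 of 5 endothelial, 5 of 5 macrophage and 2 of 5 T and NK cell genes were called higher in Brd9 KO, 4 of 7 erythroid and 1 of 7 neutrophil genes lower, and none of 4 B cell genes tested in either direction. The summed stromal markers ran from 36.2 to 54.7 CPM in control and from 108 to 173 CPM in Brd9 KO, and the part of these shifts in the results below was not tested. In bulk RNA, fewer cells of a type and less RNA per cell cannot be told apart.

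In 6 of the 7 role groups at least 1 ribosome biogenesis factor was called lower in Brd9 KO, and none was called higher. The remaining group, the 3 factors of later small subunit maturation and export, had no call but a median log2 fold change of -0.25. The test called 18 of the 45 factors lower and none higher, where 6.25% of all genes tested were called lower and 9.19% higher. All 45 had a log2 fold change below 0, from -0.64 for Nhp2 to -0.04 for Utp20, with a median of -0.33 where the median over all genes was 0.02, but 2 of them lay above 0 with library totals in place of TMM and 6 on the TPM scale. On that scale the median of all genes was 0.18, and the median of the factors lay 0.29 below it. The shift was modest: the factors called lower kept between 64.2% and 80.1% of their control level. For 29 of the 45 (64.4%) the 3 Brd9 KO libraries all lay below the 3 control libraries, and the opposite order did not occur, while 16.3% of all genes were separate in the lower and 17.2% in the higher direction. An unadjusted edgeR p under 0.05 was reached by 24 of the 45 factors, all lower, against 27.4% of all genes tested in both directions together. The calls stood close to the threshold, since only Wdr12 and Ppan had an adjusted p under 0.05, where 2.65% of all genes were lower. The number of calls depended on single libraries, for the factors and for all genes. Leaving out control 1, 2 or 3 gave 1, 0 and 7 factors, beside 2.47%, 1.86% and 2.64% of all genes called lower. Leaving out Brd9 KO 1, 2 or 3 gave 1, 0 and 19 factors, beside 1.36%, 1.7% and 15.3% of all genes.

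**Figure D1:**
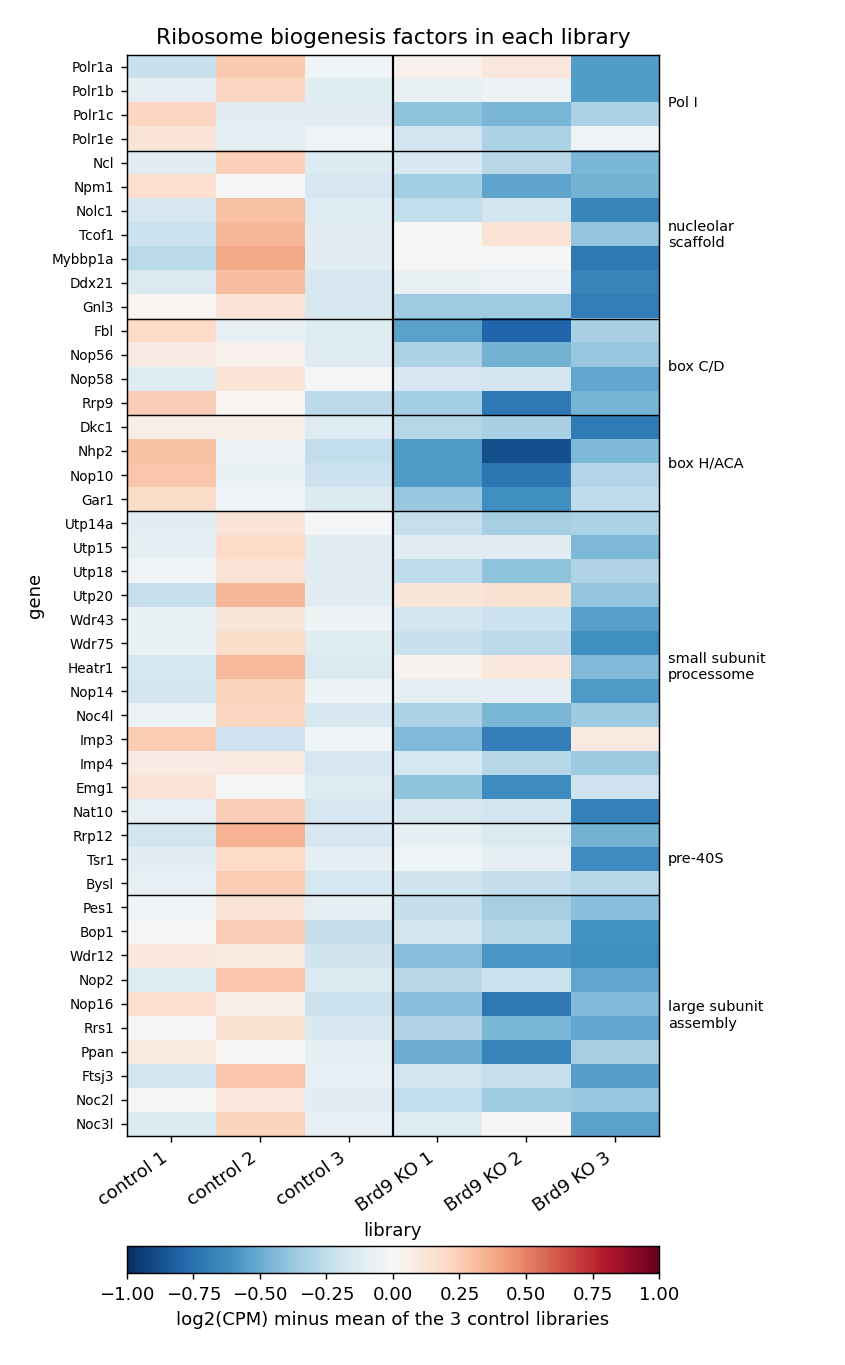
Heat map of the 45 factors (vertical axis, by role) in the 6 libraries (horizontal axis). Color gives log2 CPM minus the mean of the 3 control libraries. The Brd9 KO columns are mostly blue, the highest library of each factor is control 1 or control 2, and the lowest is Brd9 KO 2 or Brd9 KO 3.

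The box H/ACA particle guides pseudouridylation of rRNA and also stabilizes telomerase RNA. All 4 of its proteins fell, where 6.25% of all genes were called lower. Nhp2, an RNA-binding core protein, was at 225, 178 and 155 CPM for control 1 to 3 and 124, 99.9 and 134 CPM for Brd9 KO 1 to 3. Nop10, which bridges Nhp2 and the catalytic subunit, measured 184, 144 and 130 CPM in the control libraries and 102, 91.5 and 124 CPM in the Brd9 KO libraries. In both genes control 1 was the highest library, Brd9 KO 2 the lowest, and the groups did not overlap. The log2 fold change was -0.64 ± 0.17 (SE) for Nhp2 and -0.53 ± 0.16 for Nop10, with edgeR adjusted p = 0.0591 and 0.0908. Dkc1 encodes dyskerin, the pseudouridine synthase itself, and had 220, 220 and 193 CPM in the 3 controls against 173, 168 and 129 CPM in the 3 Brd9 KO libraries (-0.43 ± 0.14, edgeR adjusted p = 0.0945). Its lowest library was Brd9 KO 3, unlike that of the other 3 proteins. Gar1, which helps to position the substrate RNA, was at 99.7, 85.5 and 79.8 CPM for control 1 to 3 and 67.5, 57.5 and 73.8 CPM for Brd9 KO 1 to 3 (-0.42 ± 0.13, edgeR adjusted p = 0.096). All 4 were separate between the groups. Exons of Nhp2 (chr11:51619735-51623714, mm10) and Dkc1 overlap those of Rmnd5b and Mpp1 on the opposite strand, and the sources disagree on whether the libraries were stranded, so their values are uncertain.

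Of the 4 box C/D proteins, 3 fell, where 6.25% of all genes were called lower. Fbl, the rRNA methyltransferase fibrillarin, measured 464, 385 and 371 CPM in the control libraries and 279, 233 and 324 CPM in the Brd9 KO libraries. Nop56, a scaffold protein of the particle, had 338, 328 and 292 CPM in the 3 controls against 256, 230 and 245 CPM in the 3 Brd9 KO libraries. Both were separate between the groups, and Nop56 varied less within each group than Fbl did. The log2 fold change was -0.55 ± 0.15 for Fbl and -0.39 ± 0.10 for Nop56 (edgeR adjusted p = 0.0668 and 0.0609). Rrp9, which binds the U3 small nucleolar RNA, was at 70.5, 60.2 and 49.7 CPM for control 1 to 3 and 47.1, 36.3 and 43.2 CPM for Brd9 KO 1 to 3 (-0.51 ± 0.15, edgeR adjusted p = 0.0864). Nop58, the partner of Nop56, was not called (-0.28 ± 0.13, edgeR adjusted p = 0.201), although its groups did not overlap, with 223 to 267 CPM in control and 170 to 217 CPM in Brd9 KO. Across the 45 genes the annotation places 23 small nucleolar RNA genes inside 8 host genes, of which Nop56 holds 5 and Nop58 holds 4. Poly(A)-selected libraries do not report on those small RNAs.

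In the group of nucleolar scaffold and rRNA gene transcription factors, 2 of 7 fell, where 6.25% of all genes were called lower. Npm1, the abundant nucleolar chaperone nucleophosmin (chr11:33152287-33163206, mm10), had the highest level per length (TPM) of all 45 factors. It measured 2127, 1902 and 1689 CPM in the control libraries and 1488, 1317 and 1365 CPM in the Brd9 KO libraries (-0.46 ± 0.13, edgeR adjusted p = 0.0695). Gnl3, the GTPase nucleostemin, had 131, 142 and 116 CPM in the 3 controls against 101, 101 and 80.1 CPM in the 3 Brd9 KO libraries (-0.46 ± 0.13, edgeR adjusted p = 0.073). Neither gene overlapped between groups. Ncl, which encodes the histone chaperone nucleolin, was at 1547, 1958 and 1515 CPM for control 1 to 3 and 1485, 1374 and 1208 CPM for Brd9 KO 1 to 3. Its groups were separate by a narrow gap between control 3 and Brd9 KO 1, and it was not called (-0.30 ± 0.15, edgeR adjusted p = 0.219). Nolc1, a snoRNP chaperone (-0.36), Ddx21, an RNA helicase (-0.26), Mybbp1a, a Pol I regulator (-0.24), and Tcof1, the Pol I cofactor treacle (-0.09), were not called either.

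Of the 4 Pol I genes, only Polr1c, the shortest of them at 1305 bases, was called lower without a length term. Among all genes the share was 6.25%. Polr1c, a subunit that Pol I shares with Pol III, measured 81.7, 64.9 and 65.5 CPM in the control libraries and 53.0, 51.2 and 56.4 CPM in the Brd9 KO libraries (-0.40 ± 0.12, edgeR adjusted p = 0.0796). The groups were separate, and the 3 Brd9 KO values lay close together. Polr1a, the largest subunit, had 59.5, 83.1 and 67.3 CPM in the 3 controls against 71.4, 75.0 and 46.9 CPM in the 3 Brd9 KO libraries (-0.12 ± 0.20, edgeR adjusted p = 0.731). Here Brd9 KO 1 and Brd9 KO 2 lay inside the control range and Brd9 KO 3 below it. Polr1b, the second largest subunit (-0.22), and Polr1e (-0.18) were not called.

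The small subunit processome folds and cleaves the precursor on the way to the small subunit. It had 2 of 13 factors called lower, where 6.25% of all genes were, and a median log2 fold change of -0.31. Noc4l, a Nop14 partner, was at 92.0, 110 and 85.1 CPM for control 1 to 3 and 76.2, 69.2 and 74.1 CPM for Brd9 KO 1 to 3 (-0.39 ± 0.12, edgeR adjusted p = 0.0919). Utp18, a WD-repeat subunit, went from a mean of 72.8 ± 6.5 (SD, n = 3) to 58.3 ± 3.1 CPM (n = 3), with a log2 fold change of -0.32 and an edgeR adjusted p of 0.0978. Emg1, an rRNA methyltransferase and the most abundant of the group per length, measured 187, 166 and 155 CPM in the control libraries and 128, 109 and 146 CPM in the Brd9 KO libraries, and it missed the threshold (-0.41 ± 0.14, edgeR adjusted p = 0.105). Like Emg1, Utp14a (-0.29), Wdr75 (-0.36), Imp4 (-0.28), Wdr43 (-0.31) and Utp15 (-0.22) were separate between the groups without a call. The groups overlapped for Imp3 (-0.32), Nop14 (-0.24), the acetyltransferase Nat10 (-0.33), Heatr1 (-0.09) and Utp20 (-0.04). Utp20, the longest transcript of the 45, had 53.9, 79.4 and 58.7 CPM in the 3 controls against 68.7, 70.2 and 48.0 CPM in the 3 Brd9 KO libraries. As for Polr1a, Brd9 KO 1 and Brd9 KO 2 lay within the control range. The 3 factors of later small subunit maturation and export, Rrp12 (-0.25), Tsr1 (-0.24) and Bysl (-0.25), were not called. Tsr1, the most abundant of these per length, was at 80.8, 100 and 82.0 CPM for control 1 to 3 and 84.4, 82.0 and 56.4 CPM for Brd9 KO 1 to 3, with overlap between the groups.

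In large subunit assembly 6 of 10 factors fell, where 6.25% of all genes were called lower. This role held the 3 smallest p among the 45, those of Wdr12, Ppan and Nop16. Wdr12, a subunit of the PeBoW complex needed for processing of large subunit rRNA (chr1:60069785-60098645, mm10), measured 123, 122 and 99.9 CPM in the control libraries and 84.9, 76.3 and 74.6 CPM in the Brd9 KO libraries (-0.55 ± 0.12, edgeR adjusted p = 0.0338). Ppan, which acts in early large subunit particles, had 167, 155 and 146 CPM in the 3 controls against 110, 98.1 and 123 CPM in the 3 Brd9 KO libraries (-0.49 ± 0.12, edgeR adjusted p = 0.0437). The groups of both genes did not overlap. Of the other PeBoW subunits, Pes1 fell from a mean of 178 ± 14.5 (SD, n = 3) to 142 ± 8.9 CPM (n = 3), with an edgeR adjusted p of 0.0977, whereas Bop1 overlapped between groups and was not called (-0.36, edgeR adjusted p = 0.191). Nop16 was at 111, 103 and 85.7 CPM for control 1 to 3 and 74.4, 60.6 and 73.2 CPM for Brd9 KO 1 to 3 (-0.53 ± 0.14, edgeR adjusted p = 0.053). Rrs1, which helps to bring in the 5S particle, measured 112, 124 and 101 CPM in the control libraries and 90.6, 81.6 and 77.8 CPM in the Brd9 KO libraries (-0.43 ± 0.12, edgeR adjusted p = 0.0634). Noc2l had 262, 283 and 243 CPM in the 3 controls against 222, 205 and 202 CPM in the 3 Brd9 KO libraries (-0.33 ± 0.10, edgeR adjusted p = 0.0929). None of these 3 overlapped between groups. The rRNA methyltransferases Nop2 (-0.35) and Ftsj3 (-0.33) and the assembly factor Noc3l (-0.21) were not called. Exons of Wdr12, Pes1, Bop1 and Noc2l overlap a gene on the opposite strand, as do those of Gnl3, Nop56 and Rrp9 and of 19 of the 45 factors in all, and such values are uncertain for the same reason as above.

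**Figure D2:**
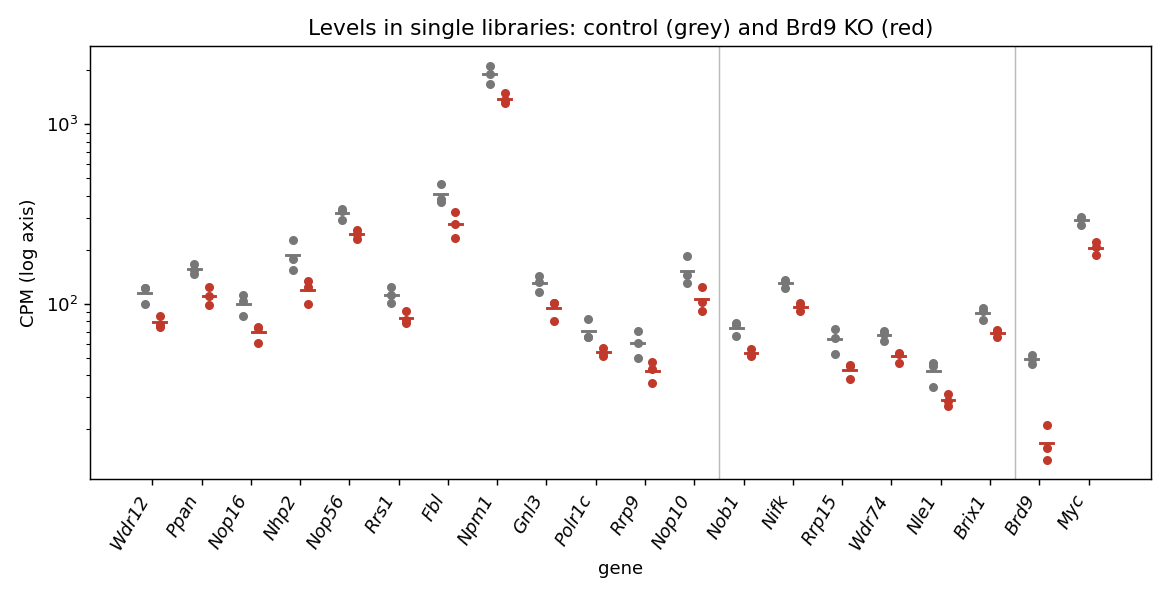
CPM (log axis) of the 12 factors with the smallest p, of 6 further ribosome biogenesis genes, and of Brd9 and Myc (right). Each point is 1 library (grey for control, red for Brd9 KO), and short lines are means of 3. The red and grey points do not overlap for any gene shown.

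Without a length term, the decrease was smaller for longer transcripts. For every factor the highest library was a control library and the lowest a Brd9 KO library. Control 1 was the highest for 15 factors with a median length of 1401 bases, and control 2 for 30 with a median of 3418 bases. Brd9 KO 2 was the lowest for 16 factors with a median of 1469 bases, and Brd9 KO 3 for 29 with a median of 3450 bases. Across the 45 factors, Spearman's rho between log2 fold change and length was 0.77 and Pearson's r with log length 0.77, and rho across all 12953 genes was 0.38. These are correlations across genes of the same 6 libraries, and genes are not independent replicates. The length trend differed between libraries of the same group. Deviations were taken from the mean of the 3 control libraries, so those of Brd9 KO also hold the difference between the groups. Across all genes, they correlated with length at rho -0.58 in control 1, 0.48 in control 2 and 0.28 in control 3. In Brd9 KO 1, 2 and 3, rho was 0.43, 0.55 and -0.02.

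The factors were lower than other genes of their own length. When all genes tested were split into 8 length classes of equal size, each of the 45 factors lay below the median log2 fold change of its class. Class medians ran from -0.26 for the shortest to 0.26 for the longest genes, and medians of the factors in those classes from -0.53 to -0.11. When each library's length trend was taken out of the counts, an alternative chosen after seeing the data, 37 of 45 factors (82.2%) were called lower and none higher, where 16.1% of all genes were called lower and 9.93% higher. These 37 included all 18 named above as having fallen. The median of the 45 was then -0.39, beside -0.06 for all genes, and rho with length was -0.21 across the 45. Differences between roles narrowed. Without a length term, role medians ran from -0.48 for box H/ACA (median length 1138 bases) to -0.20 for Pol I (3772 bases). With the offset they ran from -0.44 for the nucleolar scaffold group to -0.34 for Pol I, and 3 of 4 Pol I genes were called lower. Ncl went from -0.30 to -0.63 ± 0.11 (edgeR adjusted p = 0.0122 with the offset). Utp20 went from -0.04 to -0.39 ± 0.10 (edgeR adjusted p = 0.0444 with the offset). The 8 factors not called with the offset were Polr1e, Tcof1, Mybbp1a, Nop58, Nop14, Imp3, Tsr1 and Bop1. With 1 library left out, the count with the offset ran from 13 without control 2 to 38 without control 3. The share of all genes called lower in those fits was 8.04% and 13.6%.

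**Figure D3:**
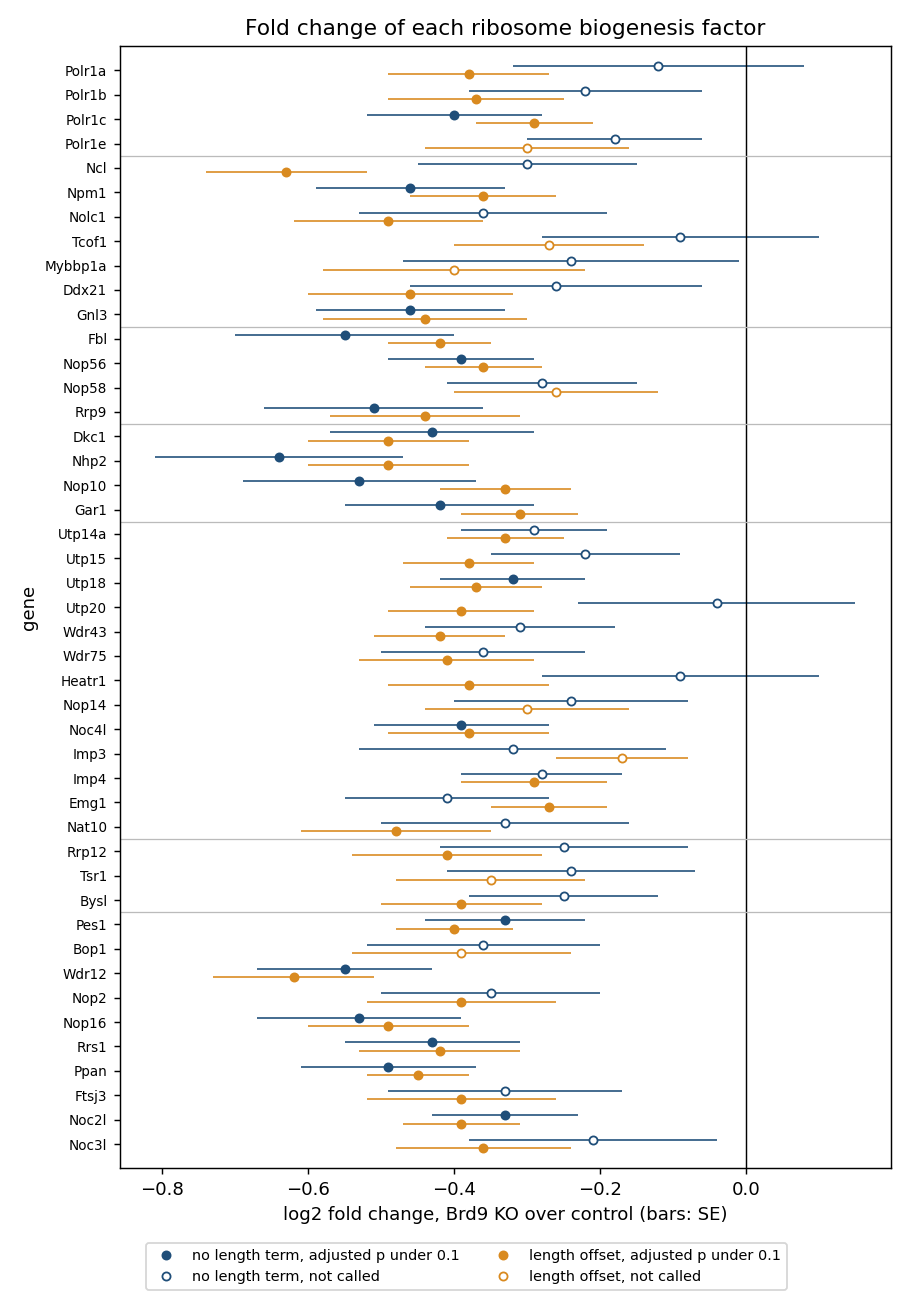
Log2 fold change of each factor in Brd9 KO over control (horizontal axis, bars are SE), without a length term in blue and with the length offset in orange. Filled points passed an adjusted p of 0.1, 18 in blue and 37 in orange, and no point lies to the right of 0.

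**Figure D4:**
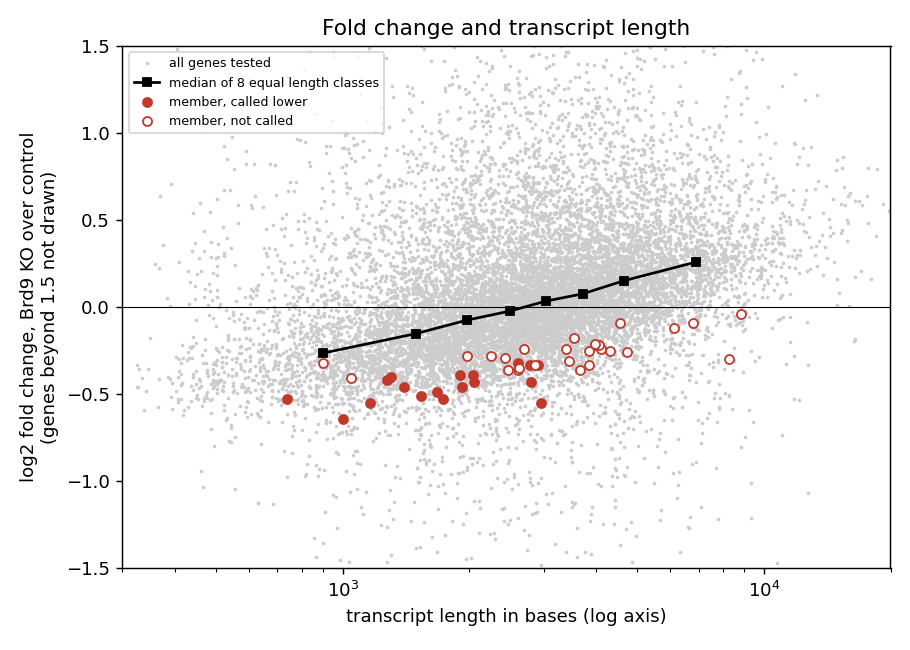
Log2 fold change in Brd9 KO over control against transcript length (log axis) for all genes tested (grey), with the median of 8 length classes (black) and the 45 factors (red, filled when called lower). Every red point lies below the black line of class medians, which rises from -0.26 to 0.26.

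Calls in the rest of the pathway were also in the lower direction only. Of 129 further ribosome biogenesis genes in a list of 140 symbols, all 129 found in the files were tested, and 27 (20.9%) were called lower and none higher, against 6.25% and 9.19% of all genes. Their median log2 fold change was -0.24, beside 0.02 for all genes. The log2 fold change was below 0 for 122 of the 129, against 6237 of all 12953 genes. Their groups did not overlap, with Brd9 KO lower, for 63 (48.8%), against 16.3% of all genes. The opposite order occurred for 1 gene, against 17.2% of all genes. By step, 1 of 11 Pol I genes, 4 of 8 snoRNP genes, 3 of 35 small subunit processome genes, 3 of 8 late small subunit genes, 14 of 51 large subunit genes and 2 of 16 exosome and trimming genes were called lower. The counts for the Pol I and small subunit processome genes were near the 6.25% of all genes. The called genes with the smallest p were Nob1, the nuclease that completes the small subunit rRNA (-0.47 ± 0.10, edgeR adjusted p = 0.0338), Nifk (-0.44), Rrp15 (-0.56), Wdr74 (-0.39), Nle1 (-0.53) and Brix1 (-0.37). Nob1 was at 77.7, 75.9 and 66.0 CPM for control 1 to 3 and 55.6, 51.8 and 51.1 CPM for Brd9 KO 1 to 3, without overlap. With the length offset, 66 of the 129 (51.2%) were called lower, against 16.1% of all genes. Without 1 library, the count ran from 0, without control 2 or without Brd9 KO 2, to 44 without Brd9 KO 3. In those fits, which had no length term, 1.86%, 1.7% and 15.3% of all genes were called lower.

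Myc measured 305, 301 and 276 CPM in the control libraries and 207, 220 and 186 CPM in the Brd9 KO libraries. Its groups were separate, and it fell to 69.5% of the control level (-0.52 ± 0.11, edgeR adjusted p = 0.028). Over 25 other settings of the analysis the call was kept in 22, with adjusted p from 0.000203 to 0.322. None of 8 proliferation genes was called in either direction without a length term, and 4 of them (Mcm2, Mcm5, Pcna and Bub1) were called lower and none higher with the length offset. Their summed level, without a length term, was 2706 to 3111 CPM in control and 2710 to 3080 CPM in Brd9 KO. Of 6 progenitor markers 2 were called higher and none lower.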

How the data were processed

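RNA-seq of 6 libraries, 3 control and 3 Brd9 KO, was analysed, named by the group and number in the sample titles. The authors, as their methods state, mapped reads to mm10 (also in the submitters' processing notes) with an nf-core pipeline of STAR and RSEM. The deposited files hold RSEM expected counts (estimated counts per gene that need not be whole), with TPM and FPKM values that the authors' RSEM run scaled by length and depth, and transcript lengths. FPKM values were not used. TPM served for ranks of level per length and for 1 alternative. All expected counts of the 45 factors were whole numbers, so none carried a fraction of a read. Depth sets the counting error only. The study describes biological triplicates, and the labels do not say whether these were separate animals. If they were not, p-values measure the spread between these libraries.

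Counts were rounded, filtered with filterByExpr, scaled by TMM and tested with the quasi-likelihood test of edgeR 4.0.16 (R 4.3.3), two-sided, with Benjamini-Hochberg adjustment over 12953 genes and a threshold of 0.1, as in the study, whose DESeq2 fit used independent hypothesis weighting, not run here. DESeq2 1.42.0 and limma 3.58.1 were alternatives, and the pseudocount on TPM was 1. The length offset takes each library's loess trend of log2 CPM on log2 length (span 0.5) out of the fit. Scripts were tested on simulated data. Positions and overlaps come from a GENCODE annotation of mm10, promoter windows from RefSeq. All 45 factors are named, with single libraries for up to 16 called factors with the smallest p and for the most abundant per length of each role; those shown for Ncl, Polr1a and Utp20 were chosen after their values were seen. The factors, roles, lists and marker genes were chosen with earlier results of these data known.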

Additional observations from a re-analysis of the deposited data

How the results depend on the processing

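The count of factors called lower was 18 with the settings used above, where 6.25% of all genes were called lower. It was 7 with library totals in place of TMM, 2 with limma on log2(TPM + 1) and 2 at an adjusted p under 0.05. The shares of all genes there were 3.78%, 1.73% and 2.65%. The count lay between 15 and 20 with RLE factors, no filter, 1 CPM in 3 libraries, DESeq2, limma-voom and a robust fit. Shares of all genes in these fits ran from 4.39% to 9.73%. With 1 library left out the count ran from 0 to 19, or from 13 to 38 with the length offset (35 without Brd9 KO 3). It was 37 with the length offset, 39 with length and GC offsets and 42 with the length offset and a replicate block (these 3 chosen after seeing the data). Of all genes, 1.36% to 15.3% were called lower with 1 library left out, or 6.04% to 19.5% with the length offset. With the 3 offsets the share was 16.1%, 16.2% and 19.7%. The same shares stand beside the counts of further genes that follow. For the 129 further genes the count of 27 became 5, 0 and 2 with library totals, TPM and the stricter threshold, ran from 0 to 44 with 1 library left out (9 to 71 with the length offset), and was 66, 61 and 88 with the 3 offsets. Of these genes 1 was called higher with library totals, 1 with DESeq2 and from 0 to 1 with 1 library left out. The median of the 45 was -0.11 on the TPM scale, where the median of all genes was 0.18, and with 1 library left out it ran from -0.38 to -0.24 without a length term and from -0.47 to -0.30 with the length offset.

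Signs turned only for factors that were not called in the fit of all 6 libraries without a length term. Of these, Polr1a, Utp20, Heatr1 and Noc3l were called lower with the length offset, and with it no sign turned. With library totals Tcof1 was at 0.0044 and Utp20 at 0.054. On the TPM scale Polr1a was at 0.078, Polr1e at 0.029, Tcof1 at 0.13, Utp20 at 0.16, Heatr1 at 0.11 and Noc3l at 0.0013. With 1 library left out and no length term, Polr1a ran from -0.24 to 0.065, Tcof1 from -0.20 to 0.093, Utp20 from -0.15 to 0.14 and Heatr1 from -0.20 to 0.081, and the lowest values with the length offset were -0.45, -0.36, -0.48 and -0.49. The cause was not tested. The Brd9 difference of -1.56 passed every model, and its exact permutation test could not go below 0.1.

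Replicate numbers showed no regular pairing of the libraries, though groups of 3 are too small to exclude one. Deviations of libraries with the same number correlated at -0.09, 0.47 and 0.02, and 2 of 6 libraries correlated best with their own number. With a replicate block 14 factors, 13 of them among the 18, and 18 of the further genes were called lower, beside 6.11% of all genes. With 3 libraries a group, the edgeR adjusted p of the called factors ran from 0.0338 to 0.0978, beside the threshold of 0.1. Outliers were not tested in groups of 3.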
